A study of Bos taurus with 6 samples.

Results

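Kruppel-like factors are zinc finger proteins that bind GC-rich and CACC sequences in promoters. Their genes were followed here in bovine granulosa cells, the layer of the ovarian follicle that makes oestradiol and surrounds the oocyte. Of 9 listed genes (KLF2, KLF3, KLF4, KLF5, KLF6, KLF9, KLF10, KLF11 and KLF13), 8 had a symbol in the platform annotation, through 13 of the 43794 probes, and KLF2 was not analysed here. Of these 8 genes, 6 could be tested. The 1 probe of KLF9 failed the brightness filter, and that of KLF6 had 1 spot marked as ignored in the scanner table.

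The Holstein cells came from follicles of 2 to 6 mm and were cultured for 5 days in serum-free MEM/F12 with 10 ng/ml FSH and 10 ng/ml insulin. Treated cells had FGF8, a secreted ligand of FGF receptors that signals through Ras and ERK, at 10 ng/ml for 2 hours, and control cells, labelled 0 hours, had the same medium without it. FGF8 therefore cannot be told apart from 2 hours more in culture. There were 3 biological replicates, each on 2 two-colour arrays with the dyes swapped, and whether they came from separate animals or cultures is not stated, so the p-values measure the spread between these 3 samples. Each value below is the log2 ratio of FGF8-treated over control RNA in the deposited table, which starts from median spot intensity minus local background.

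The family works in groups. KLF9, KLF10, KLF11 and KLF13 repress many of their targets through the SIN3A corepressor, KLF3 represses through CtBP proteins, and KLF2, KLF4, KLF5 and KLF6 act mostly as activators, although KLF4 can do both. Several members belong to the early response to growth factors: KLF10 was first described as a TGF-beta inducible early gene in human osteoblasts, KLF5 answers ERK signalling in rodent vascular smooth muscle, and KLF2 and KLF4 lie downstream of ERK5 and MEF2 factors in endothelium. In the ovary, KLF4, KLF9 and KLF13 have been studied in pig granulosa cells beside the steroidogenic genes STAR and CYP11A1. The series asks how FGF8 changed transcripts of granulosa cells, and the family is described here within that comparison.

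Of the 6 genes tested, 5 had a mean above 0 and KLF3 stood just below it. Their median was 0.49, against 0.0054 over all 11190 genes, of which 51% had a mean above 0. Among the 5, KLF5 had a probe that passed the brightness filter through treated RNA alone, which favours a mean above 0. The count of 5 and the median are therefore not read against all genes. The members' median was 0.81 without replicate 1 and 0.10 without replicate 3. None passed: limma called 0 of 6 members and 0 of 11190 genes (0%) at an adjusted p under 0.05, with a smallest adjusted p of 0.150 over all genes. At an unadjusted limma p under 0.05 there was 1 member of 6 (16.7%), KLF10, against 618 genes (5.52%; 3.1% higher and 2.42% lower), and 6 genes are too few to read a difference from these shares. KLF10 was also the only tested member higher on all 6 arrays, which 3.49% of genes were, and 0 were lower on all 6, which 2.5% of genes were. KLF10 and KLF5 were higher in all 3 replicates, which 13.6% of genes were, but the KLF5 probe passed the brightness filter through treated RNA alone, so its count is not read against that share; 0 members were lower in all 3, which 12.7% of genes were.

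**Figure D1:**
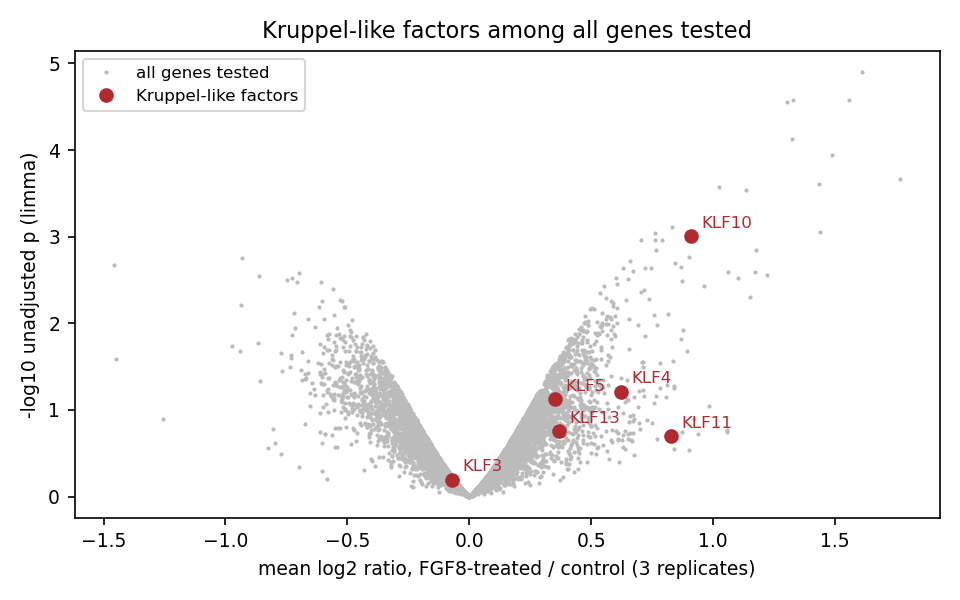
Each grey point is 1 of 11190 genes, by its mean log2 ratio of FGF8-treated over control RNA (3 replicates, horizontal axis) and the negative log10 of its unadjusted limma p (vertical axis), with the 6 tested Kruppel-like factors in red. KLF10 lies at 0.91 with the smallest p of the family, KLF11 at 0.83 and KLF4 at 0.62 have larger p, and KLF3 lies next to 0.

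KLF10, the founding TGF-beta inducible early gene, was the tested member with the highest mean. On the arrays with Cy5 on treated RNA its ratios were 1.10, 0.67 and 1.39 in replicates 1, 2 and 3, and with Cy3 on it they were 0.69, 0.54 and 1.08. All 6 arrays were thus above 0. The spot intensities behind them were 5211, 4073 and 6364 in treated RNA and 2467, 2854 and 2348 in control RNA of those replicates, with Cy5 on treated RNA. With Cy3 on treated RNA they were 7165, 4895 and 6038 in treated RNA and 3920, 2962 and 2560 in control RNA. The lowest treated intensity lay above the highest control intensity, and all of them lay far above the 95th percentile of the negative control spots, which was 94 to 167 in treated RNA and 119 to 173 in control RNA.

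The replicate values of KLF10 were 0.90, 0.60 and 1.23, which average 0.91 ± 0.32 (SD, n = 3), a 1.88-fold higher level in treated cells. The 95% interval of the mean was 0.52 to 1.30. This interval and those given below use limma's moderated standard error, which draws on the spread of all kept probes. They therefore do not follow from the printed SD and n = 3 alone. Among all genes, 23 had a higher mean and 13 a smaller p. After Benjamini-Hochberg adjustment over the 27210 probes kept, limma gave adjusted p = 0.856, so the difference did not pass. With 3 replicates an exact sign-flip test of a single gene cannot give a two-sided p below 0.25. A limma fit of all 6 arrays gave adjusted p = 0.0727 with a random replicate block and 0.0395 with no replicate block; both count arrays, and not the 3 replicates, in their residual degrees of freedom.

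A second, dim probe of KLF10 gave a smaller mean of 0.22 ± 0.32 (SD, n = 3), with replicate values of 0.42, 0.38 and -0.15. It lay above the negative controls on 4 arrays in treated RNA and on 2 in control RNA. It thus passed the brightness filter through treated RNA alone, which favours a mean above 0. Its ratio followed the dye: it averaged 0.66 with Cy5 on treated RNA and -0.23 with Cy3 on it. Limma called such a dye effect for this probe and for 8.24% of all kept probes. With the mean of both probes in place of the brighter one, KLF10 stood at 0.56.

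**Figure D2:**
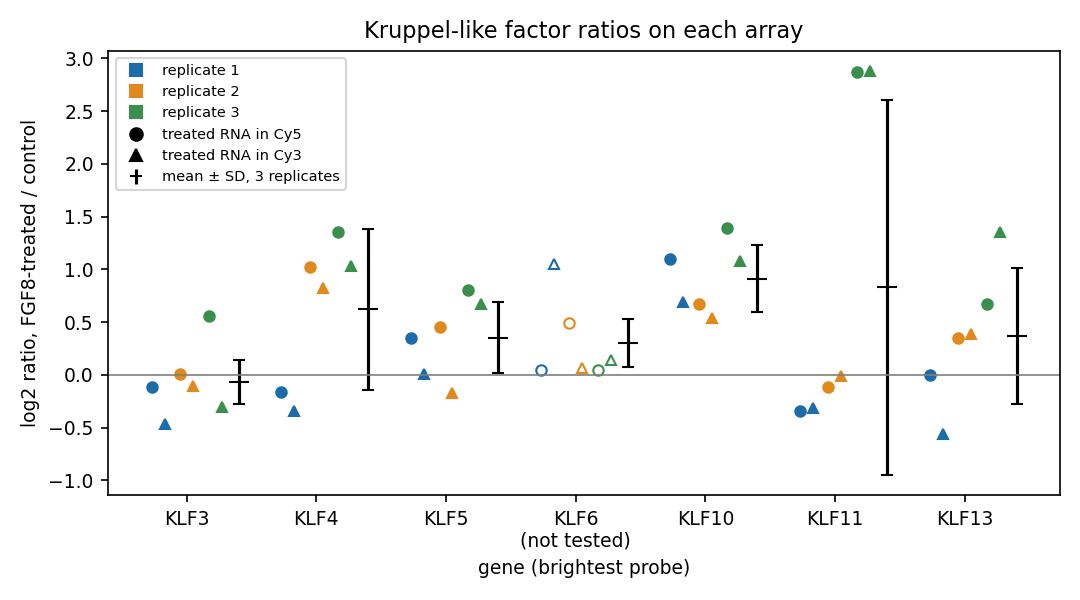
Each point is the log2 ratio of FGF8-treated over control RNA on 1 array (vertical axis) for the brightest probe of each gene (horizontal axis), with colours for replicates, circles for Cy5 and triangles for Cy3 on treated RNA. Bars give the mean ± SD of 3 replicates, and open symbols a gene outside the test; KLF10 is above 0 on all arrays, while the arrays of replicate 3 alone lie near 2.9 for KLF11.

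KLF11, the closest relative of KLF10 and also a SIN3A-binding repressor, differed in 1 replicate. Its brightest probe gave -0.33, -0.060 and 2.88 in replicates 1, 2 and 3, a mean of 0.83 ± 1.78 (SD, n = 3; 95% interval -0.57 to 2.23). In replicate 3 both dye orientations gave the high value, 2.87 with Cy5 on treated RNA and 2.88 with Cy3 on it. The intensities there were 1782 and 2707 in treated RNA, against 281 and 339 in control RNA. In replicates 1 and 2, treated RNA gave 268 to 408 and control RNA 317 to 551, so treated and control cells overlapped there. Replicate 3 was 7.34-fold higher in treated cells, and only 7 of 11190 genes had a higher value in that replicate.

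The spread of KLF11 between replicates was larger than that of 99.7% of genes, and it did not pass (limma, adjusted p = 0.858). Without replicate 3 its mean turned to -0.20 (adjusted p = 0.991). A second kept probe of KLF11 gave -0.18, -0.17 and 0.49, again highest in replicate 3 but at a smaller size, and averaged 0.048 ± 0.38 (SD, n = 3). The last of its 3 probes lay above the negative controls on 0 arrays in treated RNA and 2 in control RNA, and was not tested.

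**Figure D3:**
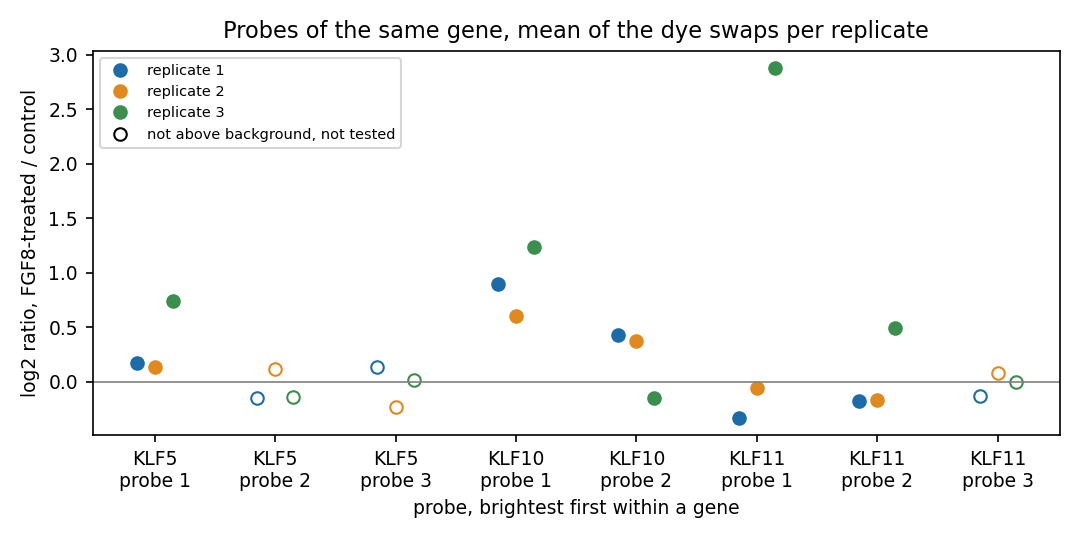
Each point is 1 replicate's log2 ratio of FGF8-treated over control RNA, as the mean of its dye swaps (vertical axis), for every probe of KLF5, KLF10 and KLF11 (horizontal axis), brightest first within each gene. Open symbols are probes that did not pass the brightness filter; replicate 3 stands at 2.88 on the first KLF11 probe and at 0.49 on the second.

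KLF13, a SIN3A-binding factor that has been studied with STAR in granulosa cells of the pig, also differed between replicates. Its ratios were -0.0061, 0.35 and 0.67 with Cy5 on treated RNA and -0.56, 0.39 and 1.36 with Cy3 on it, in replicates 1, 2 and 3. Both arrays of replicate 1 were below 0 and the other 4 above it. Intensities in replicate 3 were 2515 and 3064 in treated RNA, against 1588 and 1038 in control RNA, and in replicate 1 they were 919 and 779 in treated RNA, against 1019 and 935 in control RNA. The mean was 0.37 ± 0.65 (SD, n = 3; 95% interval -0.21 to 0.95), with adjusted p = 0.856 in limma. It became 0.69 without replicate 1 and 0.044 without replicate 3.

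KLF9, which is induced by glucocorticoids and thyroid hormone and partners the progesterone receptor in rodent uterus, lay close to background. Its 1 probe was above the negative controls on 1 array in treated RNA and on 3 in control RNA. Intensities were 76 to 163 in treated RNA and 100 to 182 in control RNA, and the groups overlapped, so no difference was detectable at this signal.

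KLF3, which binds CtBP corepressors, was the tested member nearest to 0. Its ratios were -0.12, 0.013 and 0.56 with Cy5 on treated RNA and -0.46, -0.10 and -0.30 with Cy3 on it. Their average over replicates was -0.070 ± 0.21 (SD, n = 3; 95% interval -0.41 to 0.27), and limma gave adjusted p = 0.950. The probe was dim, at 104 to 161 in treated RNA and 115 to 210 in control RNA. The average over replicates was 0.15 with Cy5 on treated RNA and -0.29 with Cy3 on it, although replicate 1 was below 0 in both orientations. No dye effect was called for this probe (limma, adjusted p = 0.192).

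KLF4, an activator and repressor known as a reprogramming factor, was higher in replicates 2 and 3 and lower in replicate 1. Its ratios were -0.16, 1.02 and 1.35 with Cy5 on treated RNA and -0.34, 0.82 and 1.03 with Cy3 on it, in replicates 1, 2 and 3. Treated RNA gave 703 and 673 in replicate 2 and 613 and 674 in replicate 3, against 443 and 323, and 301 and 308, in control RNA. In replicate 1 it gave 511 and 650 in treated RNA and 656 and 673 in control RNA. Control RNA of replicate 1 was thus at least as bright as its treated RNA, while control RNA of the other replicates was dimmer.

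The replicate values of KLF4 were -0.25, 0.92 and 1.19, a mean of 0.62 ± 0.77 (SD, n = 3; 95% interval -0.040 to 1.28), which is 1.54-fold. It did not pass (limma, adjusted p = 0.856). Without replicate 1 the mean was 1.06 (adjusted p = 0.840), and without replicate 3 it was 0.34. In replicate 2, only 28 genes had a higher ratio than KLF4. Over all kept probes, the 2 arrays of that replicate correlated at -0.107.

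**Figure D4:**
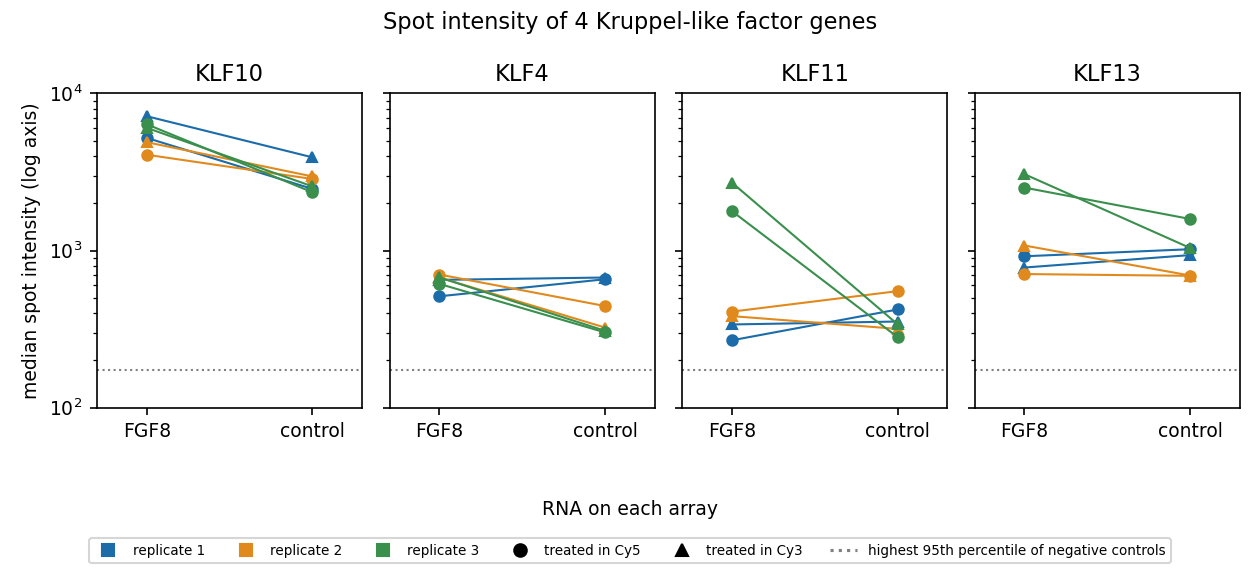
Each line joins the median spot intensity (vertical log axis) of FGF8-treated RNA, left, and control RNA, right, on 1 array, for the brightest probes of KLF10, KLF4, KLF11 and KLF13, with colours for replicates and symbols for the dye of treated RNA; the dotted line is the highest 95th percentile of the negative controls, 173. KLF10 is higher in treated RNA on all 6 arrays, KLF4 on those of replicates 2 and 3, and KLF11 stands at 1782 and 2707 in treated RNA of replicate 3, above 281 and 339 in control RNA.

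KLF5, an activator of growth genes, was dim. Its brightest probe gave 107 to 197 in treated RNA and 100 to 170 in control RNA, above the negative controls on 5 arrays in treated RNA and on 2 in control RNA. The replicate values were 0.18, 0.14 and 0.74, all above 0, and 5 of 6 arrays were higher in treated cells. The mean was 0.35 ± 0.34 (SD, n = 3; 95% interval -0.046 to 0.75), with adjusted p = 0.856 in limma. The other 2 probes of KLF5 lay above the negative controls on no more than 1 array in either RNA and averaged -0.057 and -0.030. On the mean foreground of the spots in place of the median, KLF5 stood at -0.0079.

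KLF6, an early response gene that can induce the cell cycle inhibitor CDKN1A in human cells, was above the negative controls on all 6 arrays in treated and in control RNA. Its ratios were 0.042, 0.49 and 0.042 with Cy5 on treated RNA and 1.05, 0.067 and 0.14 with Cy3 on it. All 6 were above 0, which held for 3.49% of the 11190 genes tested. The 1.05 came from the 1 spot marked as ignored, whose local Cy3 background was 257, against 18 to 27 on the other arrays. With that spot the mean was 0.30 ± 0.23 (SD, n = 3), with adjusted p = 0.855 in limma. Without that spot replicate 1 rested on 1 array, and the mean was 0.14 ± 0.13 (SD, n = 3), with no test.

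The values of the members differed between replicates. Agreement between replicates was low over all kept probes too. Pearson r was 0.010 for replicates 1 and 2, -0.0099 for 1 and 3, and 0.110 for 2 and 3. Between the dye swaps it was 0.474, -0.107 and 0.450 in replicates 1, 2 and 3. Medians of the 6 tested members were -0.27, 0.25 and 1.10 in replicates 1, 2 and 3. Over all genes they were -0.010, -0.00091 and 0.020. The 6 include KLF5, whose probe passed the brightness filter through treated RNA alone, so their medians are not read against those of all genes. KLF3, KLF4, KLF11 and KLF13 had their lowest value in replicate 1 and their highest in replicate 3, an order that 22.5% of all genes had too and that was noticed after the values were seen. KLF10 and KLF5 were lowest in replicate 2. All 6 tested members had their highest value in replicate 3, as 37.4% of all genes did, also noticed after the values were seen. The spread of all gene ratios was itself widest in replicate 3 (SD 0.479) and narrowest in replicate 2 (SD 0.228), against 0.410 in replicate 1. No label states the slide of an array. If the numbers in the array names are slides, replicates 2 and 3 sat on a common slide and replicate 1 on others, so slide and replicate cannot be told apart; with both such groups weighted alike, KLF10 stood at 0.91, KLF11 at 0.54, KLF4 at 0.40 and KLF13 at 0.21.

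**Figure D5:**
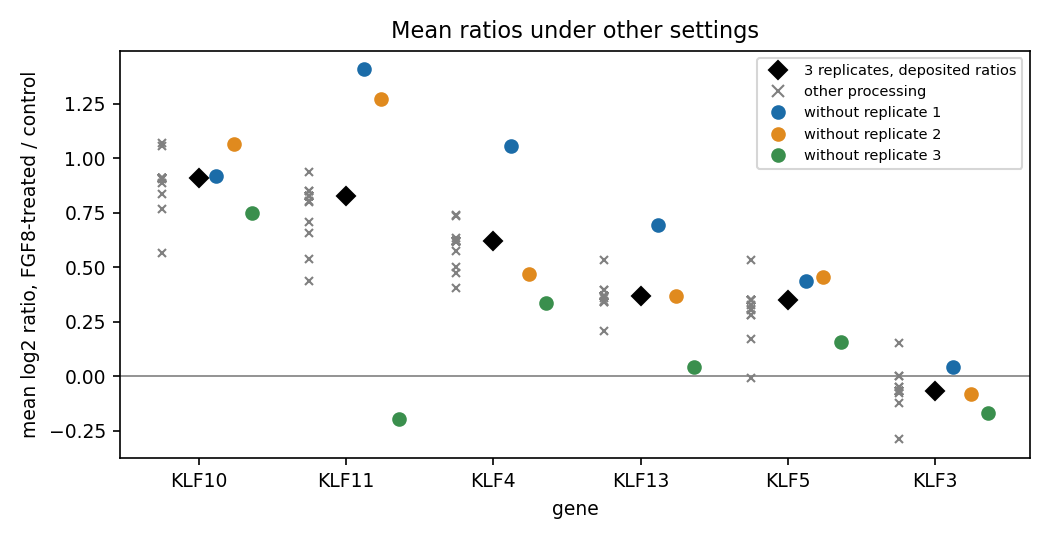
Mean log2 ratio of FGF8-treated over control RNA (vertical axis) for the 6 tested genes (horizontal axis), from the deposited ratios of 3 replicates (diamonds), under other processing (crosses) and without each replicate in turn (coloured points). KLF10 keeps between 0.56 and 1.07 under these settings, while KLF11 ranges from -0.20 without replicate 3 to 1.41 without replicate 1.

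The other KLF and SP genes that could be tested had means near 0. Of 16 listed, 15 had a probe and 6 could be tested, and 0 passed over all genes, with 0 at an unadjusted limma p under 0.05 and 0 higher or lower on all 6 arrays. Their median was -0.012 and their range -0.18 to 0.17. Among them, KLF1 and SP7 passed the brightness filter through control RNA alone, which favours a mean below 0. The median is therefore not read against the members or all genes. KLF16 (-0.18), a GC-box repressor, and the ubiquitous activator SP1 (0.16) had the smallest p, and KLF1, an activator of globin genes, stood at -0.052.

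Genes around the family were described by lists. Of 5 tested members of the ERK5 and MEF2 list, which lies upstream of KLF2 and KLF4, all 5 had means above 0 (51% of all genes did). These 5 genes are too few to read a difference from that share. None of them passed, and the median was 0.18. MAPK7, the gene of ERK5 itself, was not tested. The kinase MAP3K3 stood at 0.29 and was higher on all 6 arrays, which 3.49% of genes were, and MEF2C stood at 0.18. Of 12 listed cofactors and ubiquitin ligases, 7 could be tested, and SIN3A, SIN3B, CTBP1, EP300 and KAT2B could not. Of the 7, 0 passed and the median was 0.086, with the deacetylase HDAC2 at 0.32 and WWP1, a ligase that targets KLF2 and KLF5, at 0.086. Of 4 tested SRF and ternary complex genes, which serve ERK-driven early genes, 0 passed and 0 had means above 0, where 51% of all genes did. These 4 genes are too few to read a difference from that share. Their median was -0.12, with ELK1 at -0.27 and SRF at -0.18.

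Of 11 reported targets of the family, 0 passed over all genes, 10 had means above 0, where 51% of all genes did, and the median was 0.073. Among the 10, THBD passed the brightness filter through treated RNA alone, so this count is not read against that share. CDKN1A, which encodes the cell cycle inhibitor p21, gave 0.28, 0.19 and 0.97 in the 3 replicates. It was higher on all 6 arrays, which 3.49% of genes were. Its mean was 0.48 ± 0.43 (SD, n = 3), with adjusted p = 0.856 in limma. The progesterone receptor PGR stood at 0.27. Among genes studied beside the family in granulosa cells, STAR stood at 0.29 ± 0.49, CYP11A1 at 0.061 ± 0.48 and CYP19A1 at -0.15 ± 0.73 (SD, n = 3 each).

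By Euclidean distance over the 6 array ratios, the genes most like KLF10 were DNAJB6, a chaperone (distance 0.531), ENC1, an actin-binding protein (0.587), CCNC, the cyclin of the Mediator kinase (0.706), GPR183, an oxysterol receptor (0.728), and THBS1, a matrix glycoprotein (0.744). Their means were 0.74, 0.87, 0.69, 0.76 and 0.81, and all were higher on all 6 arrays, which the choice favours. None passed, with an adjusted p of 0.856 in limma for each.

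Markers of the cells were read on the same arrays. Of 12 granulosa markers, 10 lay above the negative controls on all 6 arrays in both RNAs, while FOXL2 and HSD17B1 did not. Summed intensities of the list were 80915 to 125892 in treated and 79796 to 118095 in control RNA. The median ratio was -0.017, or 0.48, -0.14 and -0.16 in replicates 1, 2 and 3, and 0 of 10 tested passed. Theca and stroma markers summed to 52626 to 61920 in treated and 46270 to 60214 in control RNA. Of 10, 7 lay above the negative controls throughout, while CYP17A1, INSL3 and PDGFRB did not. CYP17A1 lay above them on 1 array in treated RNA and on 3 in control RNA. Most transcripts of this list were thus present, and which cells made them was not tested. Its median was -0.073 and 0 of 9 passed. Endothelial markers, of interest because KLF2 and KLF4 are strong in endothelium, summed to 929 to 1583 in treated and 1151 to 1626 in control RNA, with 2 of 8 above throughout, a median of 0.12 and 0 of 7 passing. Leukocyte and blood markers (1782 to 2668 in treated and 2013 to 3419 in control RNA; 2 of 7 above throughout) had a median of -0.15 with 0 of 4 passing, and oocyte markers (534 to 919 in treated and 753 to 1060 in control RNA; 0 of 6 above throughout) a median of -0.19 with 0 of 3 passing. PDGFRB, CD3E and NLRP5 passed the brightness filter through control RNA alone, which favours a mean below 0. CDH5 passed it through treated RNA alone, which favours a mean above 0. The medians of the lists that hold these genes are therefore not read against all genes. How these cell types bear on the values of the family was not tested. In such samples fewer cells of a type and less RNA per cell cannot be told apart.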

How the data were processed

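Per the labels, RNA was column-purified, passed through a 2-round T7 amplification and labelled chemically with Cy3 or Cy5. Scanner files give each spot's foreground and background intensity at 532 and 635 nm, per the file headers. The deposited log2 ratios run as treated over control on each array: against median foreground minus background after loess, their correlation was 1.00 and their slope 1.00, with array medians of -0.00085 to 0.0067. The authors' further steps are not stated in these sources.

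Control spots were dropped, as were 143 probes with an ignored spot. Probes stayed in when their median foreground exceeded the 95th percentile of 153 negative control spots in treated or in control RNA on at least 4 of 6 arrays (27210 of 43794), and the brightest such probe stood for a gene. Symbols came from the platform annotation (1 symbol for 21790 probes, none for 22004, several for 0), updated through bovine RefSeq names for 1524. The 2 arrays of a replicate were averaged, and limma 3.58.1 in R 4.3.3 (lmFit, eBayes) tested the 3 means against 0, two-sided. Benjamini-Hochberg adjustment ran over all kept probes, with a threshold of 0.05. The number of replicates, 3, limits the precision. Treated and control RNA share each array, so the numbers pair them on the arrays. Correlations of their intensity deviations were 0.181, 0.368 and 0.432 for equal numbers and -0.402 to 0.124 for unequal ones. Because RNAs of equal number share the same spots, these correlations cannot show whether the cells themselves were paired. Fits were tested on simulated data. Every member is named, and of each list the genes with the smallest p or named first, with STAR, CYP11A1 and CYP19A1 beside them. The members and lists were chosen with earlier results of these data known. No sequences are shown.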

Additional observations from a re-analysis of the deposited data

Results flagged for a closer look

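The dim second probe of KLF10 differed between the dye orientations. Its Cy5 over Cy3 ratio, whichever RNA carried which dye, averaged 0.445 on the log2 scale (limma, adjusted p = 0.0071), and a dye effect of this kind was called for 2242 of 27210 probes (8.24%). It was the 1 kept probe of the family with such a call, and the bright KLF10 probe had 0.14 (limma, adjusted p = 0.381).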

How the results depend on the processing

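No alternative except 1 called a Kruppel-like factor: the limma fit of 6 arrays with no replicate block called 1 member, KLF10, and 15 genes. The fit with the replicate block called 11 genes and 0 members, the arrays with treated RNA in Cy5 called 8 genes and 0 members, and the others called 0 genes, with smallest adjusted p between 0.0694 and 0.819 over all genes. Signs turned for KLF3 with treated RNA in Cy5 (0.15) and without replicate 1 (0.041; -0.17 to 0.041 over the 3 replicates left out in turn), for KLF11 without replicate 3 (-0.20; up to 1.41 without replicate 1) and for KLF5 on the mean foreground (-0.0079); the causes were not tested. KLF4, KLF10 and KLF13 kept their sign in all 18 alternatives, but several of these could not turn it. The other brightness filters, the intensity trend, the fits of 6 arrays and keeping the ignored spots left the means of these 3 genes unchanged. For KLF4 and KLF13, with 1 kept probe each, the mean of all kept probes was unchanged too. The median over the members ranged from 0.10 without replicate 3 to 0.81 without replicate 1, and was 0.37 with the ignored spots kept, an alternative chosen after seeing the data. With normexp background correction (offset 50) and loess on the scanner files, KLF10 stood at 0.91, KLF11 at 0.85, KLF4 at 0.63, KLF13 at 0.40, KLF5 at 0.31 and KLF3 at -0.00027. Signal over background limits KLF3, KLF5 and KLF9.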

Other observations

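ELK3, a ternary complex factor that acts with SRF, gave -0.97, 0.18 and 0.78 in replicates 1, 2 and 3 (mean -0.0018 ± 0.89, SD, n = 3), the same order as KLF4, KLF11 and KLF13; it was singled out after its values were seen. On the array of replicate 1 with treated RNA in Cy3, ratios from normexp background correction correlated with the deposited ones at 0.828 with a slope of 0.509, against at least 0.997 and 0.927 on the other arrays. The value of replicate 1 was -0.29 in the deposited table and -0.074 with normexp for KLF3, and -0.25 and -0.17 for KLF4.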
